A study of Mus musculus with 12 samples.

Results

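Hepcidin and the genes that sense, import and store iron in the liver were followed across 12 RNA sequencing libraries of whole mouse liver. The genes were chosen by name, through the mouse Ensembl identifiers that the GENCODE M21 annotation of GRCm38 pairs with the symbols Hamp, Hamp2, Hfe, Tfr2, Bmp6, Smad7, Tfrc, Trf, Fth1 and Ftl1. They are 10 of the 22381 genes that were not listed at 0 in every library. All 10 reached the floor for testing, a log2 value of 3.32 (log2 of 10) in at least 3 libraries, as did 12637 genes in all.

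The mice were C57BL/6 females kept for 14 weeks on fat- and sugar-rich food (HFHS), which is used to bring on steatohepatitis. HFHS_Curcumin mice received liposomes loaded with curcumin, a plant polyphenol, into a vein at weeks 12 and 13. HFHS_Calcitriol mice received liposomes loaded with calcitriol, the hormone form of vitamin D, on the same schedule. HFHS mice were untreated, and the fourth group is titled CNT. Each group had 3 libraries, and livers of treated mice were sampled when 2 weeks had passed since the first dose. CNT carries the diet label of the other groups, and no source used here states what sets it apart. No group given empty liposomes was analysed here, so the drug and the injected carrier cannot be told apart. Whether the 3 libraries within a group are from separate animals is not said in the labels, so p-values measure only the spread between these libraries, which may be technical.

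Hepcidin is a peptide hormone made by hepatocytes that lowers the entry of iron into blood by removing the exporter ferroportin from cell surfaces. Its gene is switched on by bone morphogenetic proteins (BMPs) that liver endothelial cells release and that act through SMAD proteins, and by interleukin-6 acting through STAT3. Inside cells, iron regulatory proteins bind stem-loops in ferritin and transferrin receptor mRNAs, so that storage and uptake answer to iron in opposite ways.

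Mice carry a pair of neighbouring hepcidin genes, Hamp and Hamp2, and Hamp is the copy that encodes the iron hormone. Their proximal promoters are shown because the copies share most of this sequence. The copies also share most of their transcript, which bears on how well reads can be assigned to either. The 150 bases before the annotated start are given from RefSeq (GRCm38.p6), for Hamp at chr7:30944030-30944179 and for Hamp2 at chr7:30924182-30924331, both on the minus strand. Capitals mark the 6-base element GGCGCC in Hamp, known in the hepcidin promoter as a BMP response element, the GGCACC that stands at the aligned place in Hamp2, and a match to TTCNNNGAA, the pattern of a STAT binding site.
Hamp: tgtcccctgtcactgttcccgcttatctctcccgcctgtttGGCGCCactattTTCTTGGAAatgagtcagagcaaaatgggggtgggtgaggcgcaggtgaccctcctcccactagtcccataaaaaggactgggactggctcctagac
Hamp2: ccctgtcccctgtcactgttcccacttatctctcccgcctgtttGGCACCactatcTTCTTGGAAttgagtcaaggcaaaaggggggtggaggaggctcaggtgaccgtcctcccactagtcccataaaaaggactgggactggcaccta

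The element differs by G4A, counted from 1 at its 5′ end with the Hamp base given before the Hamp2 base. Counted from the RefSeq start, it begins at -109 in Hamp and -106 in Hamp2. A further GGCACC, left in lower case, begins at -8 in Hamp2. The TTCNNNGAA match begins at -97 in Hamp and -94 in Hamp2. The GENCODE M21 span of Hamp2 extends upstream to chr7:30924681, beyond the printed bases, so the Hamp2 positions hold for the RefSeq start only. Over RefSeq windows of 250 bases before to 50 after the start, the copies matched in 276 of 303 aligned positions (91.1%), and their transcripts matched in 388 of 437 (88.8%), with 87 bases as the longest identical run of the transcripts. Searched on both strands, GGCGCC was present in 11.9% of 32851 mouse promoter windows, GGCACC in 15.5% and TTCNNNGAA in 8.3%. A match is a description of the letters and not evidence of binding. Windows of 8 of the 10 genes were searched. Chromosome 18, which holds Smad7, was left out of the search of the iron genes, and no window of Trf was listed. Among the windows searched, the GGCGCC element outside Hamp was present in 1 window of Tfrc. Outside Hamp2, GGCACC was present in 1 window each of Bmp6, Fth1 and Ftl1. Because the transcripts of the copies are so alike and how the authors' counting split their reads is unknown, the values of both are uncertain.

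Some libraries stood apart before any iron gene was considered. The summed level of 7 infiltrating macrophage markers, on the log2 scale, was 10.38 to 10.49 in HFHS_Curcumin, 9.95 to 10.33 in HFHS_Calcitriol and 10.27 to 10.85 in CNT, but 12.18, 10.41 and 11.26 in HFHS replicates 1, 2 and 3. For stellate cell and fibroblast markers the HFHS libraries were at 12.75, 11.52 and 12.60, in the same order. HFHS replicate 3 had 9.26 for adipocyte markers, against at most 5.24 elsewhere. Some of the results that rest on HFHS are also given without single HFHS libraries.

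Hamp was lower in all 9 HFHS-titled libraries than in all 3 CNT libraries. Hamp (ENSMUSG00000050440, chr7:30942368-30944032, minus strand) had deposited log2 values of 12.72, 12.50 and 12.01 in HFHS_Curcumin livers. It had 12.52, 12.35 and 13.12 in HFHS_Calcitriol livers, 13.23, 12.89 and 11.47 in HFHS livers, and 13.82, 13.45 and 13.90 in CNT livers. The highest HFHS-titled library, at 13.23, lay just under the lowest CNT library, at 13.45, while the 3 HFHS-titled groups overlapped one another throughout. Group means were 12.41 ± 0.36 in HFHS_Curcumin, 12.66 ± 0.40 in HFHS_Calcitriol, 12.53 ± 0.94 in HFHS and 13.73 ± 0.24 in CNT (SD, n = 3 each).

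None of these gaps passed the test taken comparison by comparison. All comparisons used limma over the 12 libraries, with Benjamini-Hochberg adjustment over the 12637 genes tested and a threshold of 0.05 on the adjusted p. The log2 difference from CNT was -1.32 for HFHS_Curcumin (adjusted p = 0.0942), -1.06 for HFHS_Calcitriol (adjusted p = 0.135) and -1.20 ± 0.39 (SE) for HFHS (adjusted p = 0.0648, 95% interval -2.05 to -0.34), by limma. On a linear scale HFHS was at 0.436 of the CNT level. The size of the HFHS difference rested in part on replicate 3, which held the lowest Hamp value: without it the difference was -0.66 (adjusted p = 0.159, limma), and over all libraries left out in turn it ran from -1.55 to -0.66. These 3 comparisons share the CNT libraries. All 4 groups share 1 estimate of the spread, and without HFHS replicate 3 the limma adjusted p became 0.0131 for HFHS_Curcumin and 0.0337 for HFHS_Calcitriol against CNT.

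A comparison of the mean of the 3 HFHS-titled groups with CNT was added after these values had been seen. In it, Hamp differed by -1.19 ± 0.32 (SE, adjusted p = 0.0464 by limma), and so did Ftl1, the ferritin light chain gene, by -0.27 ± 0.07 (SE, adjusted p = 0.0346). All 9 HFHS-titled libraries were below all CNT libraries for both genes, which makes 2 of the 10 iron genes, and this held for 4.3% of all genes tested. Leaving out 1 library at a time kept the Hamp call in 3 of 12 cases (without HFHS replicate 1, 2 or 3) and the Ftl1 call in 4 (without HFHS replicate 1 or 2, HFHS_Calcitriol replicate 3 or CNT replicate 3). The Hamp difference then stayed between -1.33 and -1.01, with a highest adjusted p of 0.14 (limma) without CNT replicate 1. The Ftl1 difference stayed between -0.32 and -0.23, with a highest adjusted p of 0.149 (limma) without CNT replicate 2. After quantile normalization neither passed, at -1.06 for Hamp (adjusted p = 0.0928, limma) and -0.12 for Ftl1 (adjusted p = 0.314, limma). Past the threshold in the lower direction were 3.87% of all genes, and in either direction 7.21%. Among the HFHS-titled groups Hamp did not separate: the difference was -0.12 between HFHS_Curcumin and HFHS (95% interval -0.97 to 0.73), 0.13 between HFHS_Calcitriol and HFHS (-0.72 to 0.99), and -0.25 between HFHS_Curcumin and HFHS_Calcitriol (-1.11 to 0.60). In bulk liver, fewer cells that make a transcript and less transcript per cell cannot be told apart. The summed level of 10 hepatocyte marker genes, on the log2 scale, ran from 20.99 to 21.31 in HFHS_Curcumin, 20.59 to 21.05 in HFHS_Calcitriol, 20.76 to 21.07 in HFHS and 21.06 to 21.28 in CNT, and its part in the Hamp difference was not tested.

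**Figure D1:**
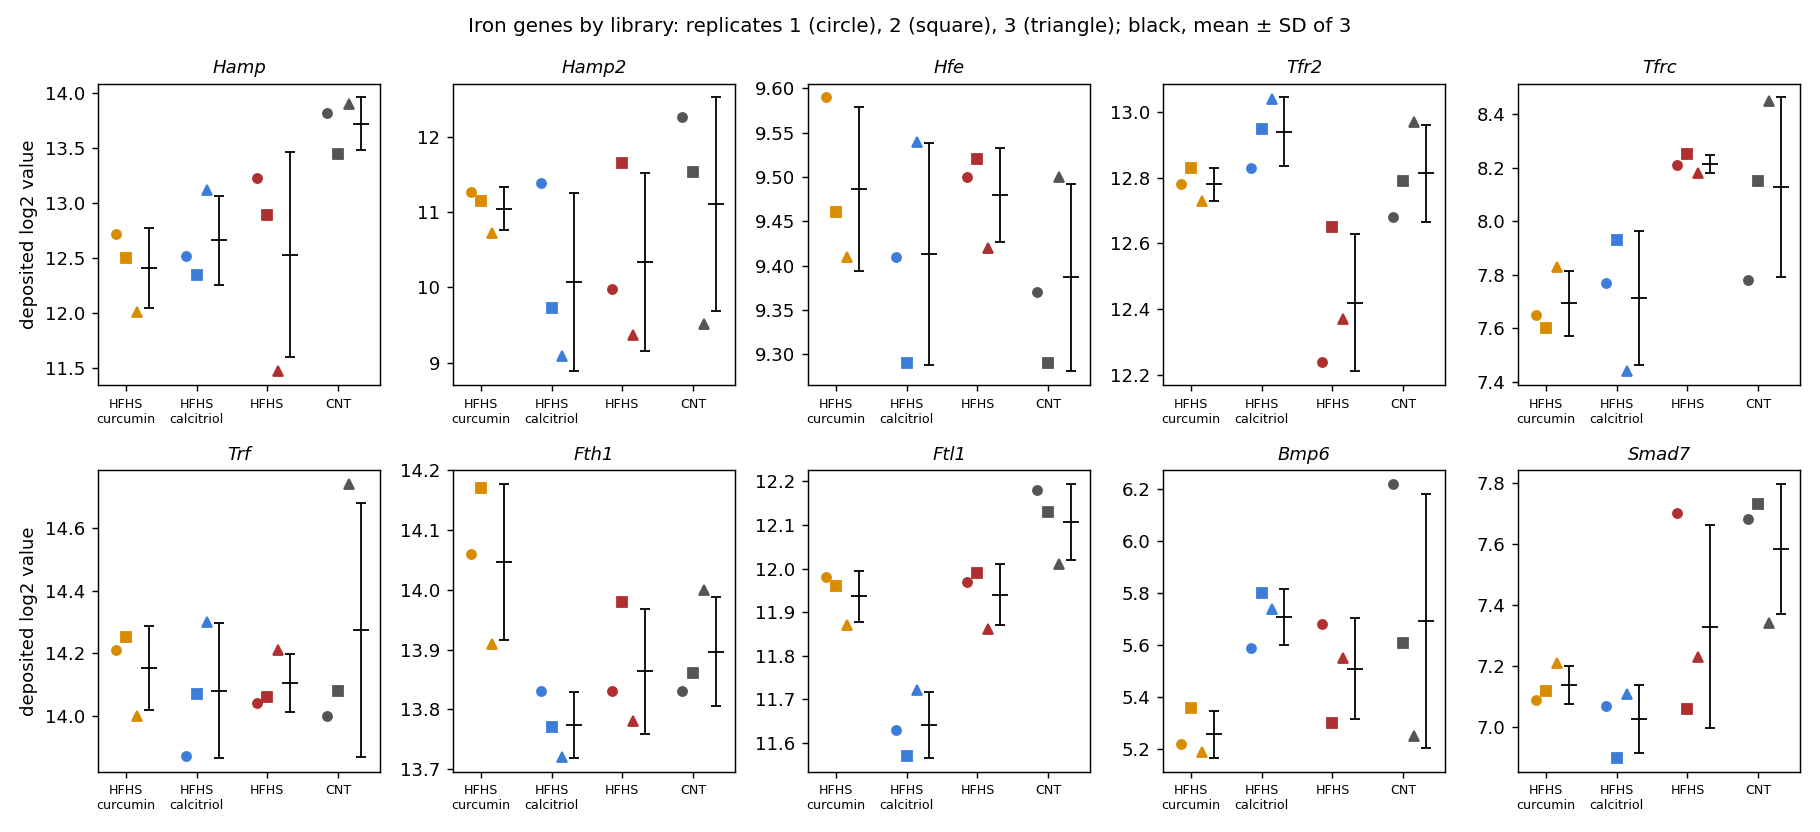
Deposited log2 value (y axis) of each of the 10 iron genes in each library, by group; circles, squares and triangles are replicates 1, 2 and 3, and black bars give the mean ± SD of 3. For Hamp all 9 HFHS-titled libraries lie below the 3 CNT libraries, Tfrc is lower in both liposome groups than in HFHS, and Hamp2 is spread over more than any other gene shown.

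Hamp2 varied widely between libraries of the same group. Hamp2 (ENSMUSG00000056978, chr7:30922372-30924681, minus strand) had log2 values of 11.27, 11.14 and 10.72 in HFHS_Curcumin livers and 11.38, 9.73 and 9.09 in HFHS_Calcitriol livers. It had 9.98, 11.65 and 9.37 in HFHS livers and 12.26, 11.53 and 9.52 in CNT livers. Every group but HFHS_Curcumin held both high and low libraries, so the groups overlapped widely. Its spread within groups, a residual SD of 1.10, was at the 99.9th percentile of genes tested, against 0.55 for Hamp (99.3rd percentile) and a median of 0.12 over all genes. Hamp2 differed from CNT by -0.06 in HFHS_Curcumin, -1.03 in HFHS_Calcitriol and -0.77 in HFHS (SE 0.85 each), with limma adjusted p = 0.981, 0.502 and 0.563. Single CNT libraries moved these sizes widely. Without CNT replicate 1 they were 0.52, -0.46 and -0.19, and without CNT replicate 3 they were -0.85, -1.83 and -1.56, in the same order of groups.

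The gap between the hepcidin copies differed widely between libraries. Hamp exceeded Hamp2 by 1.45, 1.36 and 1.29 log2 units in HFHS_Curcumin, and by 1.14, 2.62 and 4.02 in HFHS_Calcitriol. The gap was 3.25, 1.24 and 2.09 in HFHS and 1.57, 1.92 and 4.38 in CNT. It was nearly constant in HFHS_Curcumin and widest in HFHS_Calcitriol replicate 3 and CNT replicate 3. For the HFHS_Curcumin gap, 1.37 ± 0.08, against the CNT gap, 2.62 ± 1.53 (SD, n = 3 each), the exact permutation test gave p = 0.1, two-sided, the smallest value that 3 against 3 libraries allow. Over the 12 libraries, as a description, Pearson's r between Hamp and Hamp2 was 0.234 and Spearman's rho 0.266.

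HFHS_Calcitriol replicate 3 and CNT replicate 3, where the gap was widest, were also highest in Saa1, an acute phase gene that interleukin-6 switches on. Elsewhere this order did not hold. HFHS replicate 1 had a gap of 3.25 with Saa1 at 11.36, and HFHS_Calcitriol replicate 1 a gap of 1.14 with Saa1 at 12.65. Saa1 had log2 values of 12.74, 11.34 and 11.14 in HFHS_Curcumin, 12.65, 13.13 and 16.69 in HFHS_Calcitriol, 11.36, 11.43 and 11.13 in HFHS, and 9.86, 10.10 and 13.57 in CNT. Lcn2, which encodes the iron-siderophore binding protein lipocalin-2 and is likewise an acute phase gene, had 13.92 in HFHS_Calcitriol replicate 3 and 12.16 in CNT replicate 3. In the other 10 libraries it ran between 8.64 and 11.25. The part of the acute phase genes in the Hamp and Hamp2 values was not tested.

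**Figure D2:**
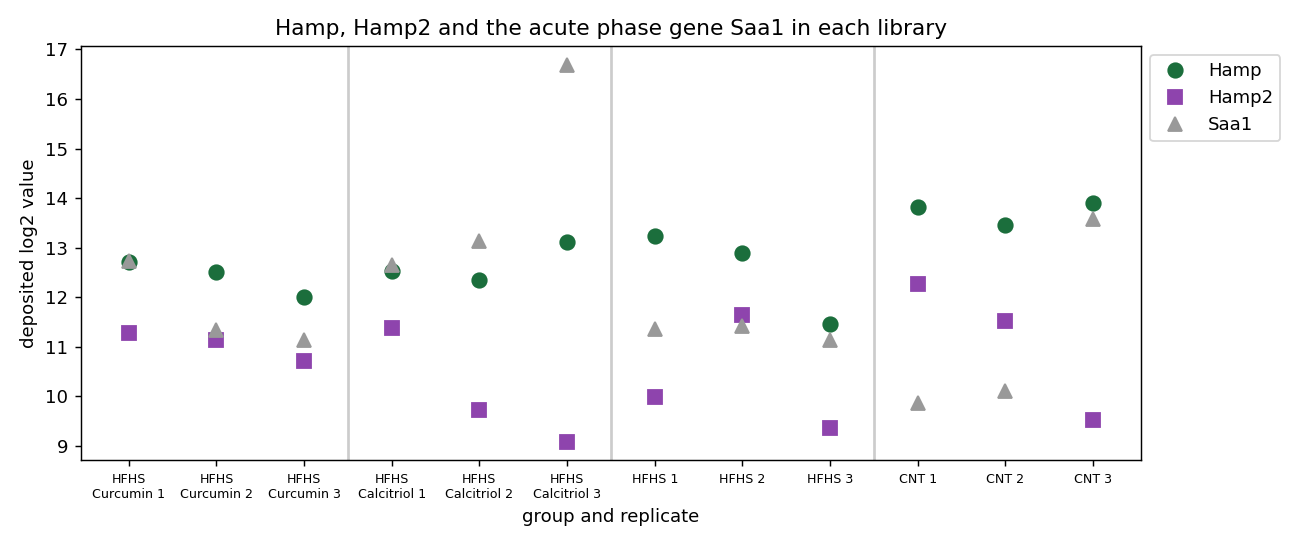
Deposited log2 values (y axis) of Hamp, Hamp2 and the acute phase gene Saa1 in each library, ordered by group along the x axis. Saa1 peaks at 16.69 in HFHS_Calcitriol replicate 3 and 13.57 in CNT replicate 3, where Hamp2 stands at 9.09 and 9.52. In HFHS replicate 3, Hamp2 is at 9.37 with Saa1 at 11.13.

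Genes whose levels followed Hamp most closely over the 12 libraries were, by Pearson's r, Gas2 (0.927), Ctdsp1 (0.926), Tmem266 (0.922), A1bg (0.914) and Bcr (0.912), with Spearman's rho between 0.874 and 0.944. After each group's mean was removed they were Sds (0.934), Cfp (0.931), Pi4k2b (0.924), Slc25a15 (0.916) and Ctsb (0.911). No gene was in both lists. Among the iron genes themselves, Smad7 (r = 0.575, rho = 0.503) and Ftl1 (r = 0.545, rho = 0.727) were closest to Hamp by Pearson's r over the 12 libraries. With group means removed, Hfe (r = 0.675) and Ftl1 (r = 0.643) were closest, and Smad7 was at 0.243. These are descriptions over 12 points that share groups and libraries.

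Among the sensors, the transferrin receptor 2 gene Tfr2 passed the test in 2 comparisons. Transferrin receptor 2 is a hepatocyte protein that reads the iron load of transferrin and passes it to hepcidin. Tfr2 (ENSMUSG00000029716, chr5:137569840-137587481, plus strand) had log2 values of 12.78, 12.83 and 12.73 in HFHS_Curcumin, 12.83, 12.95 and 13.04 in HFHS_Calcitriol, 12.24, 12.65 and 12.37 in HFHS, and 12.68, 12.79 and 12.97 in CNT. The 3 HFHS libraries were the lowest of all 12, and HFHS replicate 2 came closest to the rest. Tfr2 rose in HFHS_Calcitriol relative to HFHS by 0.52 ± 0.12 (SE, 1.43-fold, adjusted p = 0.0457, limma), higher in all 3 libraries. It was 0.36 higher in HFHS_Curcumin than in HFHS (adjusted p = 0.112, limma), also without overlap. In HFHS it fell by 0.39 ± 0.12 relative to CNT (SE, adjusted p = 0.0496, limma), lower in all 3 libraries.

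Both Tfr2 calls were close to the threshold. The call of HFHS_Calcitriol against HFHS held when HFHS replicate 2 (0.63, adjusted p = 0.0015, limma) or CNT replicate 3 was left out, and was lost when any of the other 10 libraries was, with adjusted p between 0.0539 and 0.165. Of the 12 libraries left out in turn, only HFHS replicate 2 left the call of HFHS against CNT in place (-0.51, adjusted p = 0.00327, limma), and without each of the other 11 libraries the adjusted p was between 0.0591 and 0.178. After quantile normalization the difference of HFHS from CNT was -0.11 (adjusted p = 0.452, limma), and that of HFHS_Calcitriol from HFHS 0.42 (adjusted p = 0.035, limma). Highly expressed genes as a class were lower in HFHS on the deposited scale: the 447 genes with a mean log2 value over 12 had a median difference of -0.28 from CNT, and of -0.01 after quantile normalization. The same genes had a median difference of 0.12 between HFHS_Calcitriol and HFHS and of 0.24 between HFHS_Curcumin and HFHS. After quantile normalization these were -0.02 and 0.03.

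Hfe, the gene of the hereditary haemochromatosis protein that partners both transferrin receptors, was level. Hfe ran from 9.41 to 9.59 in HFHS_Curcumin, 9.29 to 9.54 in HFHS_Calcitriol, 9.42 to 9.52 in HFHS and 9.29 to 9.50 in CNT. All 4 ranges overlapped, and no difference between groups exceeded 0.10 in size (SE 0.08). The 95% interval between HFHS_Curcumin and CNT, where the difference was 0.10, ran from -0.08 to 0.27.

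Hemojuvelin, the co-receptor through which hepatocytes hear BMPs, had the smallest adjusted p of the wider pathway lists. Its gene is listed as Hfe2, an older symbol of Hjv. Hfe2 had log2 values of 9.95, 9.86 and 9.88 in HFHS_Curcumin, 9.88, 9.73 and 9.67 in HFHS_Calcitriol, 9.49, 9.48 and 9.20 in HFHS, and 9.21, 9.12 and 9.28 in CNT. Every liposome-treated library was above every untreated one. Relative to CNT, Hfe2 rose by 0.69 in HFHS_Curcumin (adjusted p = 0.00214, limma) and by 0.56 in HFHS_Calcitriol (adjusted p = 0.00814, limma). Both differences stayed past the threshold in all 18 alternative settings tried. Relative to HFHS, it rose by 0.51 in HFHS_Curcumin (adjusted p = 0.0384, limma) and by 0.37 in HFHS_Calcitriol (adjusted p = 0.0471, limma), and these calls held in 8 and 4 of the 18 settings. Tmprss6, which encodes the protease matriptase-2 that cuts hemojuvelin, had log2 values of 12.77 to 12.90 in HFHS_Curcumin, 12.65 to 12.73 in HFHS_Calcitriol, 12.46 to 12.77 in HFHS and 12.86 to 12.87 in CNT. Its difference of -0.29 between HFHS and CNT had a limma adjusted p of 0.0669.

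The BMP ligand genes Bmp6 and Bmp2 were lower in HFHS_Curcumin than in HFHS_Calcitriol, though neither passed the test there. Bmp6, the ligand that rises with liver iron, had log2 values of 5.22, 5.36 and 5.19 in HFHS_Curcumin, 5.59, 5.80 and 5.74 in HFHS_Calcitriol, 5.68, 5.30 and 5.55 in HFHS, and 6.22, 5.61 and 5.25 in CNT. All 3 HFHS_Curcumin libraries were below all 3 HFHS_Calcitriol libraries, while CNT spanned nearly the whole range. The difference between HFHS_Curcumin and HFHS_Calcitriol was -0.45 ± 0.19 (SE, adjusted p = 0.315, limma). At this low level the deposited values may understate a change. Bmp2, which endothelial cells release to set the basal level of hepcidin, had 7.77, 7.79 and 7.76 in HFHS_Curcumin, 8.23, 8.46 and 8.53 in HFHS_Calcitriol, 7.98, 7.96 and 8.08 in HFHS, and 8.18, 7.85 and 7.64 in CNT. Bmp2 rose by 0.52 in HFHS_Calcitriol relative to CNT (adjusted p = 0.036, limma), and its difference between HFHS_Curcumin and HFHS_Calcitriol was -0.63 (adjusted p = 0.164, limma). The call held in 10 of the 18 alternative settings.

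The liver sinusoidal endothelium, the known source of both ligands, had its 9 markers at a summed log2 level of 12.09 to 12.34 in HFHS_Curcumin, 12.78 to 12.89 in HFHS_Calcitriol, 12.24 to 12.77 in HFHS and 12.05 to 12.76 in CNT. HFHS_Calcitriol was thus the highest group for these markers as for Bmp2, and their part in the Bmp2 and Bmp6 values was not tested.

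The BMP target genes Smad7, Id1 and Atoh8 had their lowest means in the liposome groups, with 1 of their differences past the threshold. Smad7, which encodes the inhibitory SMAD that BMPs induce and that damps their signal, had log2 values of 7.09, 7.12 and 7.21 in HFHS_Curcumin, 7.07, 6.90 and 7.11 in HFHS_Calcitriol, 7.70, 7.06 and 7.23 in HFHS, and 7.68, 7.73 and 7.34 in CNT. Both liposome groups lay wholly below CNT, and HFHS replicate 1 stood with CNT. The difference from CNT was -0.44 in HFHS_Curcumin (adjusted p = 0.132, limma), -0.56 ± 0.15 in HFHS_Calcitriol (SE, adjusted p = 0.0581, limma) and -0.25 in HFHS (adjusted p = 0.264, limma), none past the threshold. The HFHS difference was -0.44 without HFHS replicate 1 and -0.12 without HFHS replicate 2. Without HFHS replicate 1 the adjusted p against CNT was 0.0449 for HFHS_Curcumin and 0.0203 for HFHS_Calcitriol, by limma. Without CNT replicate 3 the differences were -0.56 for HFHS_Curcumin (adjusted p = 0.0462) and -0.68 for HFHS_Calcitriol (adjusted p = 0.031), by limma. Without HFHS replicate 2 the adjusted p for HFHS_Calcitriol was 0.0242, by limma. The HFHS difference from CNT did not pass with any library left out.

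Id1 and Atoh8, a pair of further BMP target genes that encode transcription regulators, showed the same order. Id1 had 6.60, 6.53 and 6.21 in HFHS_Curcumin, 6.43, 6.26 and 6.34 in HFHS_Calcitriol, 7.26, 6.51 and 6.38 in HFHS, and 7.31, 7.29 and 6.76 in CNT. Its difference from CNT was -0.67 in HFHS_Curcumin (adjusted p = 0.117, limma) and -0.78 in HFHS_Calcitriol (adjusted p = 0.0655, limma). Atoh8 fell by 0.61 in HFHS_Calcitriol relative to CNT (adjusted p = 0.0466, limma), with 7.41, 7.66 and 7.79 in HFHS_Calcitriol and 8.23, 8.16 and 8.28 in CNT. That call held in 5 of the 18 alternative settings. In HFHS, Smad7, Id1, Atoh8 and Hamp were all highest in replicate 1, as were the target genes Smad6, Id2 and Id3. In the other groups, Smad7, Id1, Atoh8 and Hamp did not all peak in the same replicate. In CNT, Hamp was highest in replicate 3 (13.90), where Smad7 (7.34) and Id1 (6.76) were lowest and Atoh8 (8.28) was highest. Among other target genes, Id3 had its lowest means in the liposome groups, with HFHS close to them. Smad6 had its lowest mean in HFHS. For Id2 the lowest mean was in HFHS_Curcumin, while HFHS_Calcitriol lay above HFHS. Smad6, the gene of another inhibitory SMAD, averaged 6.56 in HFHS_Curcumin, 6.52 in HFHS_Calcitriol, 6.49 in HFHS and 6.68 in CNT. Id2 averaged 10.21, 10.48, 10.34 and 10.66, and Id3 8.66, 8.72, 8.73 and 9.26, in the same order of groups.

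**Figure D3:**
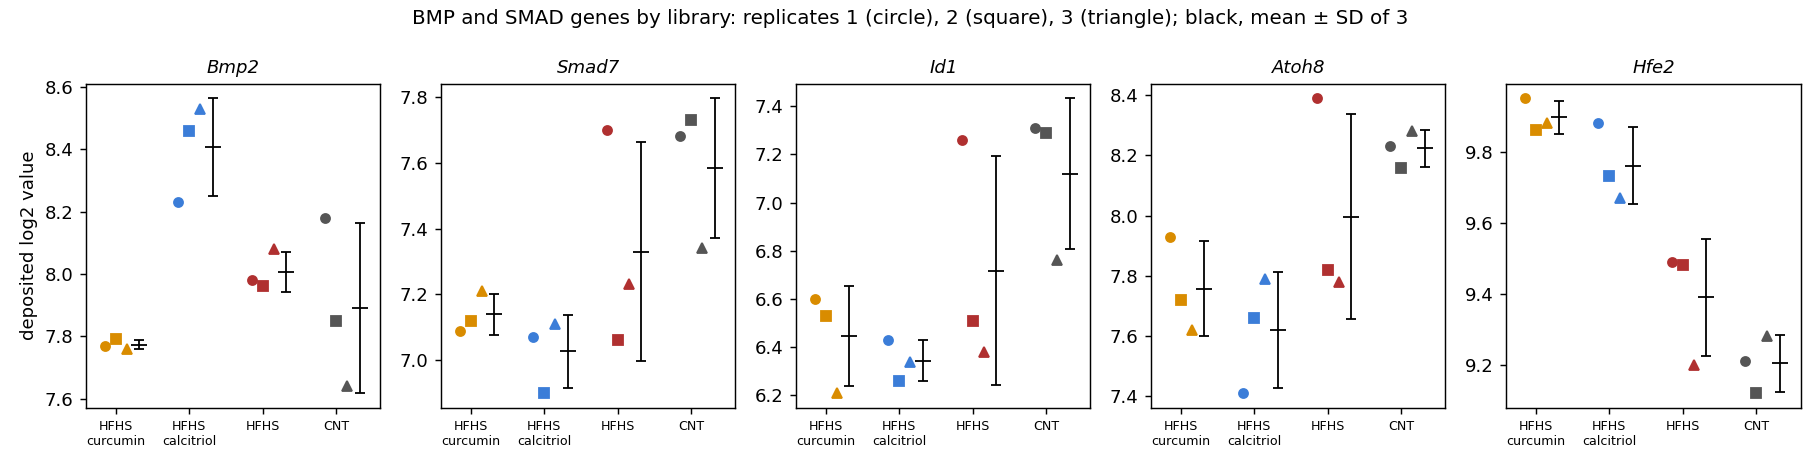
Deposited log2 values (y axis) of the ligand gene Bmp2, the BMP targets Smad7, Id1 and Atoh8, and the hemojuvelin gene Hfe2 in each library, by group; black bars give the mean ± SD of 3. Smad7 and Id1 are lower in every liposome-treated library than in every CNT library, and Hfe2 is higher in every liposome-treated library than in every untreated one.

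Tfrc, the gene of the receptor through which most cells take up transferrin-bound iron, was lower in both liposome groups than in HFHS, short of the threshold. Tfrc had log2 values of 7.65, 7.60 and 7.83 in HFHS_Curcumin, 7.77, 7.93 and 7.44 in HFHS_Calcitriol, 8.21, 8.25 and 8.18 in HFHS, and 7.78, 8.15 and 8.45 in CNT. All 6 liposome-treated libraries were below all 3 HFHS libraries, which were close together, and CNT overlapped both sides. The difference from HFHS was -0.52 ± 0.15 for HFHS_Curcumin (SE, adjusted p = 0.0933, limma, 95% interval -0.86 to -0.18) and -0.50 ± 0.15 for HFHS_Calcitriol (SE, adjusted p = 0.102, limma, -0.84 to -0.17). Both comparisons share the HFHS libraries. With a library left out in turn the differences stayed between -0.59 and -0.47 for HFHS_Curcumin and between -0.61 and -0.37 for HFHS_Calcitriol, and none passed. Red cell precursors are rich in Tfrc, and the summed log2 level of the erythroid markers was 13.39 to 13.52 in HFHS_Curcumin, 13.44 to 13.74 in HFHS_Calcitriol, 12.15 to 13.05 in HFHS and 12.01 to 13.11 in CNT, with Ahsp not listed above 0. Their part in the Tfrc values was not tested.

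The stem-loops that iron regulatory proteins are known to bind are shown for Fth1, Ftl1, Tfrc and the ferroportin gene Slc40a1, because they tie these genes' mRNAs to iron after transcription. Each 30-base site was read from GENCODE M21 transcripts (GRCm38) as the loop CAGTGN with a C before it and paired stem bases on both sides, and the capitals mark the loop. Fth1, Ftl1 and Slc40a1 carry theirs in the 5′ UTR at chr19:9982732-9982761 (plus strand), chr7:45459778-45459807 (minus strand) and chr1:45925464-45925493 (minus strand). In the 3′ UTR of Tfrc the pattern matched 4 sites on the plus strand of chromosome 16, starting at 32631219, 32631598, 32631663 and 32631710. Slc11a2 was searched too and gave no such site. Stem-loops of another form would be missed by this pattern.
Fth1: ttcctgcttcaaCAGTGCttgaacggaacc
Ftl1: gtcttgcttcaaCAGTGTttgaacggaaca
Slc40a1: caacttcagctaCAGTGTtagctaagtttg
Tfrc site 1: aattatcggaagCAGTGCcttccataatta
Tfrc site 2: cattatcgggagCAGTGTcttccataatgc
Tfrc site 3: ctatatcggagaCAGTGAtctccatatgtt
Tfrc site 4: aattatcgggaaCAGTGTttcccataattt

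The same pattern was found in the 5′ UTR of 31 of 20916 genes (0.148%) and in the 3′ UTR of 129 of 21039 (0.613%). In background knowledge, binding at the 5′ sites blocks translation without necessarily changing mRNA level, and binding at the 3′ sites protects the Tfrc mRNA from decay. Ferritin protein was not measured here.

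Ftl1 fell in HFHS_Calcitriol relative to CNT. Ftl1 encodes the ferritin light chain, which helps the ferritin shell lay down its iron core, and had log2 values of 11.98, 11.96 and 11.87 in HFHS_Curcumin, 11.63, 11.57 and 11.72 in HFHS_Calcitriol, 11.97, 11.99 and 11.86 in HFHS, and 12.18, 12.13 and 12.01 in CNT. The HFHS_Calcitriol libraries were the lowest 3 of all 12 and the CNT libraries the highest 3. The difference of HFHS_Calcitriol from CNT was -0.47 ± 0.08 (SE, 0.721-fold, adjusted p = 0.0149, limma), lower in 3 of 3 libraries. It was lost without HFHS_Calcitriol replicate 2 (-0.44, adjusted p = 0.0681, limma) or CNT replicate 2 (-0.46, adjusted p = 0.065, limma) and held without each of the other 10. The Ftl1 difference of HFHS_Calcitriol from HFHS was -0.30 (adjusted p = 0.0758, limma), past the threshold without HFHS replicate 2 (-0.28, adjusted p = 0.0408, limma) and after quantile normalization (-0.43, adjusted p = 0.0268, limma). The difference between HFHS and CNT, -0.17 on the deposited scale (adjusted p = 0.183, limma), was 0.09 after quantile normalization, so its direction depends on the scaling. Ferritin genes have many processed copies in the mouse genome, so their values are uncertain where the authors' counting could split reads.

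Fth1, which encodes the heavy chain that oxidises iron for storage, did not pass the test in any comparison. Fth1 had log2 values of 14.06, 14.17 and 13.91 in HFHS_Curcumin, 13.83, 13.77 and 13.72 in HFHS_Calcitriol, 13.83, 13.98 and 13.78 in HFHS, and 13.83, 13.86 and 14.00 in CNT. HFHS_Curcumin lay wholly above HFHS_Calcitriol, and the other groups overlapped. The difference between HFHS_Curcumin and HFHS_Calcitriol was 0.27 ± 0.11 for Fth1 (SE, adjusted p = 0.287, limma) and 0.30 ± 0.08 for Ftl1 (SE, adjusted p = 0.208, limma).

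The log2 level of Ftl1 minus that of Fth1, in which a constant scaling of each library cancels, was -2.08, -2.21 and -2.04 in HFHS_Curcumin and -2.21, -2.21 and -1.99 in HFHS_Calcitriol. It was -1.87, -1.98 and -1.91 in HFHS and -1.65, -1.73 and -1.99 in CNT. All 6 liposome-treated libraries were below all HFHS libraries and at or below the lowest CNT library. Against HFHS the mean difference was -0.19 for HFHS_Curcumin and -0.22 for HFHS_Calcitriol, each with p = 0.1 by a two-sided exact permutation test, the smallest that 3 against 3 libraries can give. The log2 level of Tfrc minus that of Fth1 was likewise lower, at -6.35 ± 0.24 in HFHS_Curcumin and -6.06 ± 0.21 in HFHS_Calcitriol, against -5.65 ± 0.07 in HFHS (SD, n = 3 each, exact permutation p = 0.1 for both). In CNT it was -5.77 ± 0.25. A shift that depends on expression level does not cancel in these gaps, and Tfrc lies far below Fth1 in level. Against HFHS, the 447 genes with a mean log2 value over 12 had a median difference of 0.24 in HFHS_Curcumin and 0.12 in HFHS_Calcitriol. The part of that shift in these gaps was not tested. Over the 18 exact permutation tests run on the 3 such gaps, including that between Hamp and Hamp2, each p of 0.1 became 0.225 after Benjamini-Hochberg adjustment.

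Trf, which encodes the serum iron carrier transferrin and is among the most abundant liver transcripts, overlapped in all comparisons. Trf ran from 14.00 to 14.25 in HFHS_Curcumin, 13.87 to 14.30 in HFHS_Calcitriol, 14.04 to 14.21 in HFHS and 14.00 to 14.74 in CNT. No difference exceeded 0.20 in size (SE 0.18), and its highest library was CNT replicate 3.

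Read over the comparisons, few iron genes were past the threshold. In HFHS_Curcumin against HFHS 0 of 10 passed, against 0.301% of all genes tested (38 genes, or 242 with the replicate number as a block, which left the count of iron genes at 0), and 2 had an unadjusted p under 0.05, Tfrc and Tfr2, as did 24.7% of all genes. In HFHS_Calcitriol against HFHS 1 of 10 passed (Tfr2), against 2.21% of all genes. In HFHS against CNT 1 of 10 passed (Tfr2), against 11.9%. In HFHS_Curcumin against CNT 0 of 10 passed, against 3.51%, with 4 at an unadjusted p under 0.05, as for 18.6% of all genes. In HFHS_Calcitriol against CNT 1 of 10 passed (Ftl1), against 4.04%. In HFHS_Curcumin against HFHS_Calcitriol 0 of 10 passed and 0% of all genes did, although 1873 genes (14.8%) and 3 of the iron genes (Fth1, Ftl1 and Bmp6) had an unadjusted p under 0.05 by limma.

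Groups that did not overlap were about as frequent among the iron genes as among all genes. They numbered 2 of 10 in HFHS_Curcumin against HFHS (23.6% of all genes), and 3 of 10 in HFHS_Calcitriol against HFHS (24.4%), HFHS_Curcumin against HFHS_Calcitriol (28.7%), HFHS_Curcumin against CNT (25.6%), HFHS_Calcitriol against CNT (32.3%) and HFHS against CNT (26.9%). The genes in the last 3 of these comparisons were all lower than in CNT: Hamp, Ftl1 and Smad7 in each liposome group, and Hamp, Tfr2 and Ftl1 in HFHS. Of all genes, 12.7% in HFHS_Curcumin, 17.4% in HFHS_Calcitriol and 14.1% in HFHS were wholly lower than in CNT. The median difference of the 10 genes from CNT was -0.15 in HFHS_Curcumin, -0.30 in HFHS_Calcitriol and -0.18 in HFHS, against medians between -0.01 and 0.00 over all genes. The 447 genes with a mean log2 value over 12, Hamp, Tfr2, Trf and Fth1 among them, had medians of -0.04, -0.15 and -0.28, in the same order. After quantile normalization the medians of these 447 genes were 0.02, -0.01 and -0.01. The part of this shift in the iron gene medians was not tested.

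**Figure D4:**
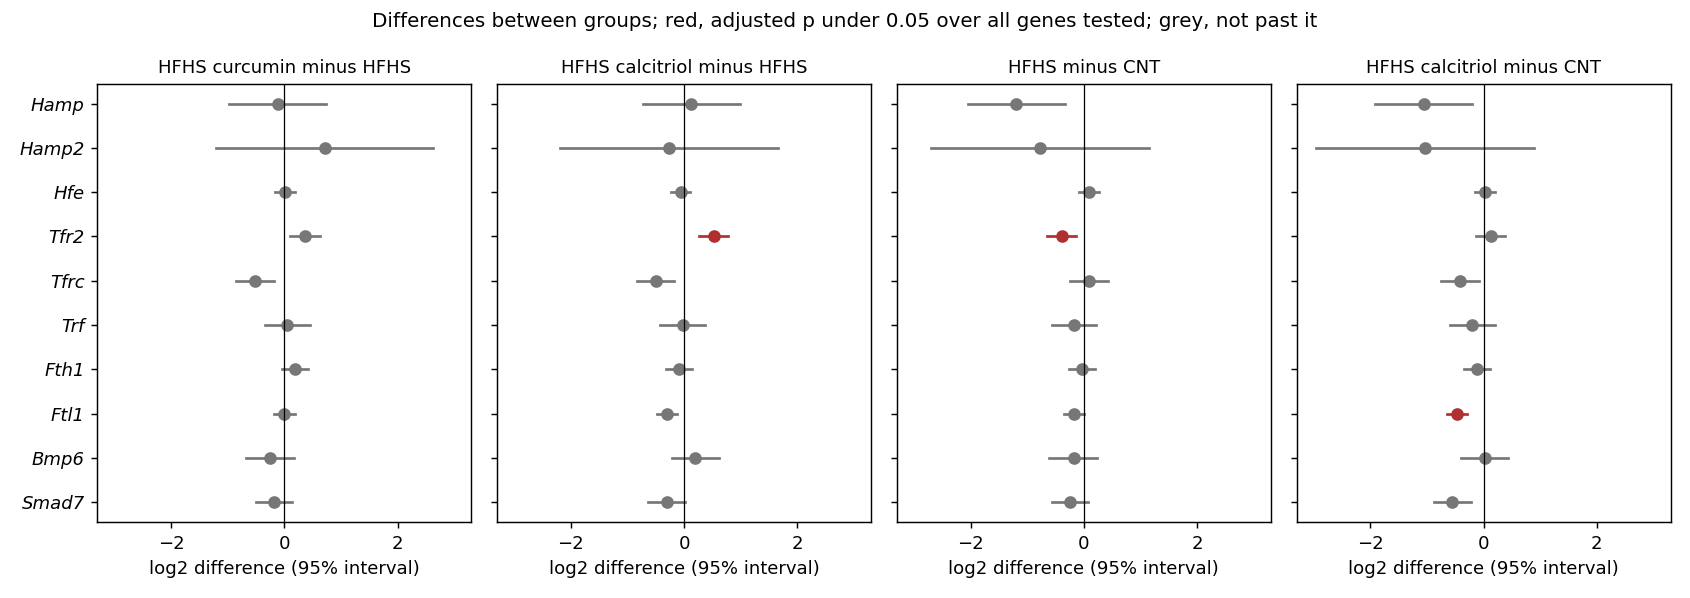
Log2 difference (x axis) of each iron gene in 4 of the 6 comparisons, with its 95% interval; red points have an adjusted p under 0.05 over all genes tested, grey points do not. The red points are Tfr2 in HFHS_Calcitriol against HFHS and in HFHS against CNT, and Ftl1 in HFHS_Calcitriol against CNT.

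The counts of the wider lists stand beside the shares of all genes past the threshold given above, 0.301% in HFHS_Curcumin and 2.21% in HFHS_Calcitriol against HFHS, and 3.51% in HFHS_Curcumin, 4.04% in HFHS_Calcitriol and 11.9% in HFHS against CNT. Of 21 other genes of BMP and SMAD signalling to hepcidin, 20 were tested. In HFHS_Calcitriol against CNT, 2 of these rose (Hfe2, Bmp2) and 1 fell (Atoh8), with a median difference of -0.03. In HFHS_Curcumin against CNT, Hfe2 rose and Smad5, which encodes a SMAD that BMP receptors activate, fell by 0.25 (adjusted p = 0.0452, limma, held in 3 of 18 settings). Against HFHS, Hfe2 alone was past the threshold in each liposome group, and none was in HFHS against CNT, where the median was -0.18. The median over all genes tested lay between -0.01 and 0.00 in each comparison.

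In the list of inflammatory signalling to hepcidin, 18 of 19 genes were tested, and 1 passed in HFHS_Calcitriol against each untreated group. Stat3, the transcription factor that carries the interleukin-6 signal to Hamp, rose by 0.58 in HFHS_Calcitriol relative to HFHS (adjusted p = 0.0311, limma, held in 9 of 18 settings). It had 11.59, 11.71 and 11.92 in HFHS_Calcitriol and 11.12, 11.29 and 11.08 in HFHS. The list's median difference there was 0.37, with 17 of 18 genes above 0 (6253 of 12637 over all genes), and Socs3, the feedback inhibitor of STAT3, differed by 0.76 (adjusted p = 0.127, limma). The acute phase genes Saa1, Saa2 and Lcn2 were far higher in HFHS_Calcitriol replicate 3 than in the other libraries of that group, as for Saa2, with 11.35, 11.64 and 17.12 in HFHS_Calcitriol and 10.48, 10.47 and 10.20 in HFHS. Against CNT, Inhbb, the activin B subunit gene, rose by 0.65 in HFHS_Calcitriol (adjusted p = 0.0226, limma, 14 of 18 settings) and by 0.53 in HFHS (adjusted p = 0.0279, limma, 11 of 18 settings). In HFHS against CNT, Il1b, the interleukin-1 beta gene, also rose, by 0.75 (adjusted p = 0.0268, limma, 12 of 18 settings), and Cebpa, which encodes a liver transcription factor that acts on the hepcidin promoter, fell by 0.45 (adjusted p = 0.0361, limma, 7 of 18 settings). Among the settings that ended the calls of Inhbb and Il1b in HFHS was HFHS reduced to its replicate 2, with adjusted p of 0.332 and 0.474 by limma. Without HFHS replicate 3 the difference was 0.43 for Inhbb and 0.59 for Il1b, and neither passed. No gene of this list passed in either comparison of HFHS_Curcumin with an untreated group. Il6ra, the interleukin-6 receptor gene, overlapped between groups in every comparison, and Il6 itself was below the floor for testing.

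Transport genes outside the main set were mostly higher in HFHS_Calcitriol than in HFHS, with 16 of 18 tested genes (21 listed) above 0 and a median difference of 0.19. Over all genes tested, 6253 of 12637 were above 0 there. Slc39a14, which imports iron not bound to transferrin, rose by 0.50 in HFHS_Calcitriol relative to HFHS (adjusted p = 0.0425, limma, 7 of 18 settings). It had 12.35, 12.56 and 12.69 in HFHS_Calcitriol and 11.96, 12.21 and 11.91 in HFHS. Cd163, the macrophage receptor that takes up haemoglobin bound to haptoglobin, rose by 1.92 in the same comparison (adjusted p = 0.047, limma, 4 of 18 settings), with 8.83, 9.39 and 9.24 in HFHS_Calcitriol and 6.70, 8.50 and 6.49 in HFHS. HFHS replicates 1 and 3 were thus far below replicate 2 for Cd163. The summed log2 level of 8 Kupffer cell markers, Cd163 among them, was 13.24 to 13.61 in HFHS_Calcitriol and 12.66 to 13.28 in HFHS, and its part was not tested. Against CNT, Steap4, an iron and copper reductase gene, rose by 0.88 in HFHS_Calcitriol (adjusted p = 0.0328, limma, 13 of 18 settings). Steap4 had 12.22, 12.29 and 12.98 in HFHS_Calcitriol and 11.49, 11.48 and 11.87 in CNT. Without HFHS_Calcitriol replicate 3 the difference was 0.64 and did not pass (adjusted p = 0.0875, limma). None of this list passed in HFHS_Curcumin against HFHS or CNT, or in HFHS against CNT.

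Slc40a1, the ferroportin gene, was higher in every liposome-treated library than in every untreated one. It had log2 values of 11.90, 11.98 and 11.96 in HFHS_Curcumin, 11.89, 12.03 and 12.04 in HFHS_Calcitriol, 11.84, 11.74 and 11.64 in HFHS, and 11.87, 11.51 and 11.57 in CNT. The difference from HFHS was 0.21 in HFHS_Curcumin (adjusted p = 0.234, limma) and 0.24 in HFHS_Calcitriol (adjusted p = 0.198, limma), and that from CNT 0.30 (adjusted p = 0.14, limma) and 0.34 (adjusted p = 0.082, limma), none past the threshold. Slc11a2, which moves iron out of endosomes, and Cp, the ferroxidase ceruloplasmin, did not pass in any comparison, with differences from CNT of 0.31 (adjusted p = 0.126) and 0.23 (adjusted p = 0.407) in HFHS_Calcitriol by limma.

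Of 10 genes that set iron storage and iron regulatory protein activity, 9 were tested. In HFHS against CNT 8 of 9 were below 0, with a median difference of -0.16, and in HFHS_Calcitriol against CNT 6 of 9 were, also with a median of -0.16. Of all 12637 genes tested, 6580 and 6421 were below 0 in these comparisons, in the same order. Pcbp2, an iron chaperone gene that loads ferritin, fell by 0.32 in HFHS relative to CNT (adjusted p = 0.0233, limma) on the deposited scale. After quantile normalization its difference was -0.09 and did not pass (adjusted p = 0.402, limma). Herc2, which encodes a ubiquitin ligase for the ferritin receptor NCOA4, fell by 0.35 in HFHS_Curcumin relative to CNT (adjusted p = 0.0441, limma, 4 of 18 settings). The iron regulatory protein genes Aco1 and Ireb2 and the ferritin receptor gene Ncoa4 did not pass in any comparison. Ireb2 was wholly higher in HFHS_Calcitriol than in HFHS, by 0.27 (adjusted p = 0.186, limma).

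In the haem list, all 19 genes were tested. Abcg2, which encodes a transporter that exports porphyrins, rose relative to CNT in every HFHS-titled group: by 0.48 in HFHS_Curcumin (adjusted p = 0.0139), 0.37 in HFHS_Calcitriol (adjusted p = 0.0392) and 0.31 in HFHS (adjusted p = 0.0414), by limma. These calls held in 15, 9 and 5 of the 18 alternative settings, and the 3 comparisons share the CNT libraries. Flvcr2, a transporter gene of the same list, rose by 0.70 in HFHS_Curcumin relative to CNT (adjusted p = 0.0333, limma, 11 of 18 settings). Hmox1, which encodes the haem-degrading and iron-releasing enzyme haem oxygenase 1, was wholly higher in HFHS than in CNT, by 0.56, and did not pass (adjusted p = 0.0591, limma). It had 9.78, 9.29 and 9.13 in HFHS and 9.04, 8.78 and 8.69 in CNT.

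All 18 genes of iron-sulfur cluster assembly were tested. Lyrm4, which encodes a partner of the cysteine desulfurase that supplies the sulfur, fell by 0.31 in HFHS relative to CNT (adjusted p = 0.028, limma, 12 of 18 settings), and no other gene of the list passed in any comparison. The list's median difference was 0.16 in HFHS_Curcumin against HFHS, with 17 of 18 genes above 0. It was 0.15 in HFHS_Curcumin against HFHS_Calcitriol, also with 17 of 18 above 0, and -0.16 in HFHS_Calcitriol against CNT, with 15 of 18 below 0. Of all 12637 genes tested, 6223 and 6427 were above 0 in the first and second comparison, and 6421 below 0 in the third.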

How the data were processed

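For every library the authors deposited a list of Ensembl gene identifiers, each with a log2 value. STAR 2.4.0d, DESeq2 1.8.1 and GRCm38 are named, without roles, per the submitters' processing notes. The transformation is not given in the sources used here. The 45792 identifiers were the same in all files, and 23411 at exactly 0 in every library were left out. Values ran from -3.63 to 20.7, and no gene was at 0 in some libraries only. Low genes' fold changes are probably understated. Without counts the depth of each library is unknown, so precision is given by the spread between libraries.

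Groups came from the sample titles. limma 3.58.1 in R 4.3.3 fitted 4 group means over all 12 libraries to 12637 genes (at least 3.32 in 3 libraries), with trended, robust empirical Bayes moderation, two-sided tests and Benjamini-Hochberg adjustment, threshold 0.05. The script was checked on simulated data. Symbols and coordinates came from GENCODE M21, promoters from RefSeq. Sequences were searched with Python 3.11.15.

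The iron genes, pathway lists and marker lists were chosen with earlier results of these data known. The rule for named genes took all 10 iron genes, 17 fixed pathway genes, further list genes past the threshold (at most 5 a list and comparison), and the 5 genes most correlated with Hamp.

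Replicate numbers come from the titles. Deviations of same-numbered libraries from their group means, over all genes tested, correlated above 0.1 in 9 of 18 pairs (range -0.383 to 0.372). In HFHS_Curcumin with HFHS (0.16, 0.321 and 0.162) and HFHS_Calcitriol with CNT (0.205, 0.253 and 0.372) all 3 pairs did. The labels state no pairing. These correlations cannot establish one, because deviations of 3 libraries from their own mean are not independent. The main fit had no replicate block. Alternatives tried were no low-value filter, fits of only the 2 groups compared, quantile normalization, the replicate block, moderation without trend and robust estimation, HFHS reduced to its replicate 2, and leaving out each library.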

Additional observations from a re-analysis of the deposited data

How the results depend on the processing

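Over the 60 differences of 10 iron genes in 6 comparisons, 59 kept direction and side of the threshold with no low-value filter, 54 with only the 2 groups compared, 50 after quantile normalization, 47 with HFHS reduced to its replicate 2, and 60 both with the replicate block and without trend and robust estimation. Of 720 differences with a library left out, 652 did, 23 fell short of the threshold, 10 passed it anew and 35 changed sign. With the replicate block, the Tfr2 call of HFHS_Calcitriol against HFHS had an adjusted p of 0.038 and that of HFHS against CNT 0.0341 (limma), and the block changed no other call of an iron gene. Depth is unknown, so no counting limit can be given. The cause of each shift was not tested.

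The number of all genes past the threshold in HFHS against CNT, 1505, was 68 with HFHS reduced to its replicate 2 and 13 with only the 2 groups compared. In HFHS_Curcumin against HFHS, 38, it was 0 under both, 74 with no filter, 168 after quantile normalization and 242 with the replicate block. In HFHS_Calcitriol against HFHS, 279, it was 4 with HFHS replicate 2 alone, 0 with only the 2 groups and 430 after quantile normalization. In HFHS_Curcumin against HFHS_Calcitriol, 0, it was 10 and 214 under the first and second of these settings. It was 816 with HFHS replicate 2 alone in HFHS_Curcumin against CNT, 443, and 1187 in HFHS_Calcitriol against CNT, 511, where no filter gave 328. With each library left out the counts ran from 135 to 3717 in HFHS against CNT, 0 to 3207 in HFHS_Curcumin against HFHS, 4 to 2194 in HFHS_Calcitriol against HFHS, 0 to 0 in HFHS_Curcumin against HFHS_Calcitriol, 94 to 949 in HFHS_Curcumin against CNT and 73 to 1142 in HFHS_Calcitriol against CNT.

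Of the iron genes, 1 passed in HFHS against CNT, and 0 did with HFHS replicate 2 alone, no filter, only the 2 groups or quantile normalization. In HFHS_Calcitriol against HFHS, 1, it was 0 with HFHS replicate 2 alone or only the 2 groups and 2 after quantile normalization. Only the 2 groups gave 1 (Bmp6) in HFHS_Curcumin against HFHS_Calcitriol, 1 (Hamp) in HFHS_Curcumin against CNT and 3 (Hamp, Smad7, Ftl1) in HFHS_Calcitriol against CNT. HFHS replicate 2 alone gave 2 and 3 in the last pair. With a library left out the counts ran from 0 to 1 in HFHS against CNT and in HFHS_Curcumin against HFHS, 0 to 2 in HFHS_Calcitriol against HFHS and in both liposome groups against CNT, and 0 to 0 between the liposome groups.

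Differences that changed sign were small or from widely spread genes, and none of them had passed the test. After quantile normalization they were, in HFHS against CNT, Trf 0.15, Fth1 0.27 and Ftl1 0.09; in HFHS_Curcumin against HFHS, Hfe -0.02, Trf -0.21 and Fth1 -0.11; Tfr2 0.06 in HFHS_Curcumin against CNT and Bmp6 -0.08 in HFHS_Calcitriol against CNT. With HFHS reduced to its replicate 2 they were, in HFHS against CNT, Hamp2 0.54 and Fth1 0.08; in HFHS_Curcumin against HFHS, Hamp2 -0.60, Hfe -0.03 and Smad7 0.08; in HFHS_Calcitriol against HFHS, Hamp -0.23 and Trf 0.02. In the mean of the 3 HFHS-titled groups against CNT, added after seeing the data, Tfrc was -0.25.

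With single libraries left out, signs changed within these ranges. In HFHS against CNT, Tfrc ran from -0.08 to 0.25, Trf -0.31 to 0.06, Fth1 -0.09 to 0.02 and Bmp6 -0.40 to 0.08. In HFHS_Curcumin against HFHS, Hamp ran from -0.65 to 0.23, Hfe -0.05 to 0.05 and Ftl1 -0.04 to 0.03. In HFHS_Calcitriol against HFHS, Hamp ran from -0.40 to 0.49, Hamp2 -0.92 to 0.39 and Trf -0.13 to 0.08. Between HFHS_Curcumin and HFHS_Calcitriol, Tfrc ran from -0.15 to 0.09 and Trf -0.03 to 0.18. In HFHS_Curcumin against CNT, Hamp2 ran from -0.85 to 0.52, Tfr2 -0.10 to 0.05 and Trf -0.26 to 0.11. In HFHS_Calcitriol against CNT, Hfe ran from -0.04 to 0.09, Trf -0.33 to 0.03 and Bmp6 -0.20 to 0.28.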
